A study of Mus musculus with 11 samples.

Results

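The 9 genes described here are the receptor LAG-3 (Lag3), the proteases that cut it from the cell surface (Adam10 and Adam17) and genes of its known ligands (Lgals3, Fgl1, H2-Aa, H2-Ab1, H2-Eb1 and Cd74). They were chosen by name among the 32469 gene symbols of the table, because Lag3 encodes the target of the antibody given to the mice, and no rule on measured values was used. Bulk RNA-seq libraries were made from intratumoral T cells of wild-type C57BL/6 mice, females that were 8 weeks old per the study's methods, with 1 library per mouse. All mice carried tumors of Lewis lung carcinoma (LLC), a C57BL/6 lung carcinoma cell line injected under the skin of both flanks. The untreated group held 5 mice. The anti-LAG-3 group held 6 mice that received 200 µg of the antibody clone C9B7W intraperitoneally on days 14 and 16, and no library of mice given another antibody was analysed here. According to the methods, the sequenced cells were a subset, sorted by a further surface marker, of the CD8+ PD-1+ Ly108+ TIM-3- cells, the gate used for precursor exhausted CD8 T cells. The days given for tumor excision differ between the series description and the methods, and no result below rests on them. The comparison of the groups asked whether the RNA of the blocked receptor, its sheddases or its ligands differed after LAG-3 blockade.

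LAG-3 is an inhibitory receptor of activated and exhausted T cells and lies beside Cd4, to which it is related in structure. Its longest-known ligand is MHC class II on antigen-presenting cells, which is assembled with the invariant chain Cd74. H2-Aa and H2-Ab1 encode the alpha and beta chain of the class II molecule I-A, and H2-Eb1 the beta chain of I-E, whose alpha chain C57BL/6 mice lack, so that its RNA does not stand for a surface ligand in this strain. FGL1, a liver secretory protein, and galectin-3 (Lgals3), a sugar-binding lectin, are also known to bind it, and LAG-3 associates with the T cell receptor and CD3 complex. The membrane metalloproteases ADAM10 and ADAM17 cut LAG-3 near the membrane and release its soluble form, so that surface LAG-3 can change with no change in Lag3 RNA.

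Class II genes share promoter boxes through which the coactivator CIITA acts, and mouse T cells are known to keep CIITA off. The 150 bases before the start of H2-Aa and H2-Eb1 are shown because they hold these boxes and their RNA is followed across the libraries below. Both sequences come from RefSeq on GRCm38.p6, written 5′ to 3′, with the first match of CTGATTGG (the Y box) and of GCAAC (part of the X box) in capitals.
H2-Aa (chr17:34287824-34287973, minus strand): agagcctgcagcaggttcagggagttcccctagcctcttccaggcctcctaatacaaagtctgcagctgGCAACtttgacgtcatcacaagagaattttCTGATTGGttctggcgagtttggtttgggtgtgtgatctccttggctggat
H2-Eb1 (chr17:34305717-34305866, plus strand): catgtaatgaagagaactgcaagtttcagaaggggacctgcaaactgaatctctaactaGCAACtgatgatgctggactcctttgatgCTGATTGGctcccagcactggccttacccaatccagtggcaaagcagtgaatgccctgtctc
CTGATTGG began at position -51 in H2-Aa and at -62 in H2-Eb1, and GCAAC at -81 and -91, counted from the annotated start. In the 250 bases before the start, on either strand, CTGATTGG was present in 3.83% and GCAAC in 29.9% of 32851 RefSeq promoters, and neither was found in those of Adam10, Adam17 and Lgals3. The motifs do not overlap. A promoter was matched for 5 of the 9 genes, and the motif search draws on these alone.

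Total counts ranged from 313524 to 1901374 per library, and 3 counts were worth between 1.57 and 9.64 CPM (read counts scaled for depth and composition) depending on the library. These floors cover counting error only, since the reads are PCR copies counted without molecular identifiers. Depth followed the primer barcode, with a median of 1141450.5 counts in the 6 libraries with barcode 9 (3 per group), 411796.5 in the 4 with barcode 8 (1 untreated, 3 anti-LAG-3) and 317449 in the single untreated library with barcode 10. The titles carry a second number, which untreated replicates 2 and 3 share with anti-LAG-3 replicate 10, and untreated replicate 4 with replicate 5. Libraries with the same second number differ in the primer barcode, and the part of this sharing in any value was not tested. The libraries carried the RNA of the gate. Cd8a had 1133 ± 28.6 CPM (n = 5, SD) in untreated and 1147 ± 85.2 CPM (n = 6, SD) in anti-LAG-3 mice, Pdcd1 (PD-1) 681 ± 68.3 and 575 ± 96.0 CPM, and Slamf6 (Ly108) 106 ± 10.1 and 92.8 ± 13.5 CPM. The log2 fold change of Pdcd1, anti-LAG-3 over untreated, was -0.24 with a standard error of 0.097. Its p was 0.0214 unadjusted and 0.999 adjusted in edgeR's quasi-likelihood test. Havcr2 (TIM-3) stayed between 0 and 18.8 CPM. RNA of other cells was low but present. The 8 myeloid markers summed to 18.8 to 59.0 CPM in untreated and 23.6 to 148 CPM in anti-LAG-3 libraries, where anti-LAG-3 replicate 10 was at 148 CPM and all others were at 75.1 CPM or less. The 6 dendritic cell markers summed to 15.7 to 41.1 CPM in untreated and 9.60 to 21.4 CPM in anti-LAG-3 libraries, with Clec9a at 0 in all, and the 6 B cell markers to 0 to 5.09 and 0 to 9.64 CPM. The 3 neutrophil markers reached at most 3.54 CPM with S100a8 and S100a9 at 0, the 5 tumor and stromal markers at most 25.0 CPM, and Cd4 with Foxp3 at most 2.25 CPM. In bulk RNA, fewer cells of a type and less RNA per cell cannot be told apart.

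Across the transcriptome no gene passed the test. Of 6949 genes tested by edgeR's quasi-likelihood test, 0 had a Benjamini-Hochberg adjusted p under 0.05 (0%), as did 0 by edgeR's likelihood ratio test and 0 by DESeq2, while 259 (3.73%) had an unadjusted p under 0.05, compared with 307 and 163 by these alternatives. Lag3, Adam10, Adam17, Lgals3, H2-Aa, H2-Eb1 and Cd74 were among the tested genes, and 0 of these 7 passed, with an adjusted p of 0.999 each and 0 with an unadjusted p under 0.05. H2-Ab1 and Fgl1 fell below the filter on low counts. In all 9 genes the values of the groups overlapped, whereas 33 of the 6949 tested genes (0.475%) had groups that did not. The 7 log2 fold changes of anti-LAG-3 over untreated mice had a median of 0.19 and ranged from -0.02 to 0.32, while the median of all tested genes was 0.0045. When 1 library was left out, the median of the 7 genes ranged from 0.068 without anti-LAG-3 replicate 10 to 0.26 without anti-LAG-3 replicate 6. It was 0.11 without untreated replicate 1, 0.094 without anti-LAG-3 replicate 7 and 0.22 without anti-LAG-3 replicate 9. Within primer barcode 9 the median was 0.024.

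**Figure D1:**
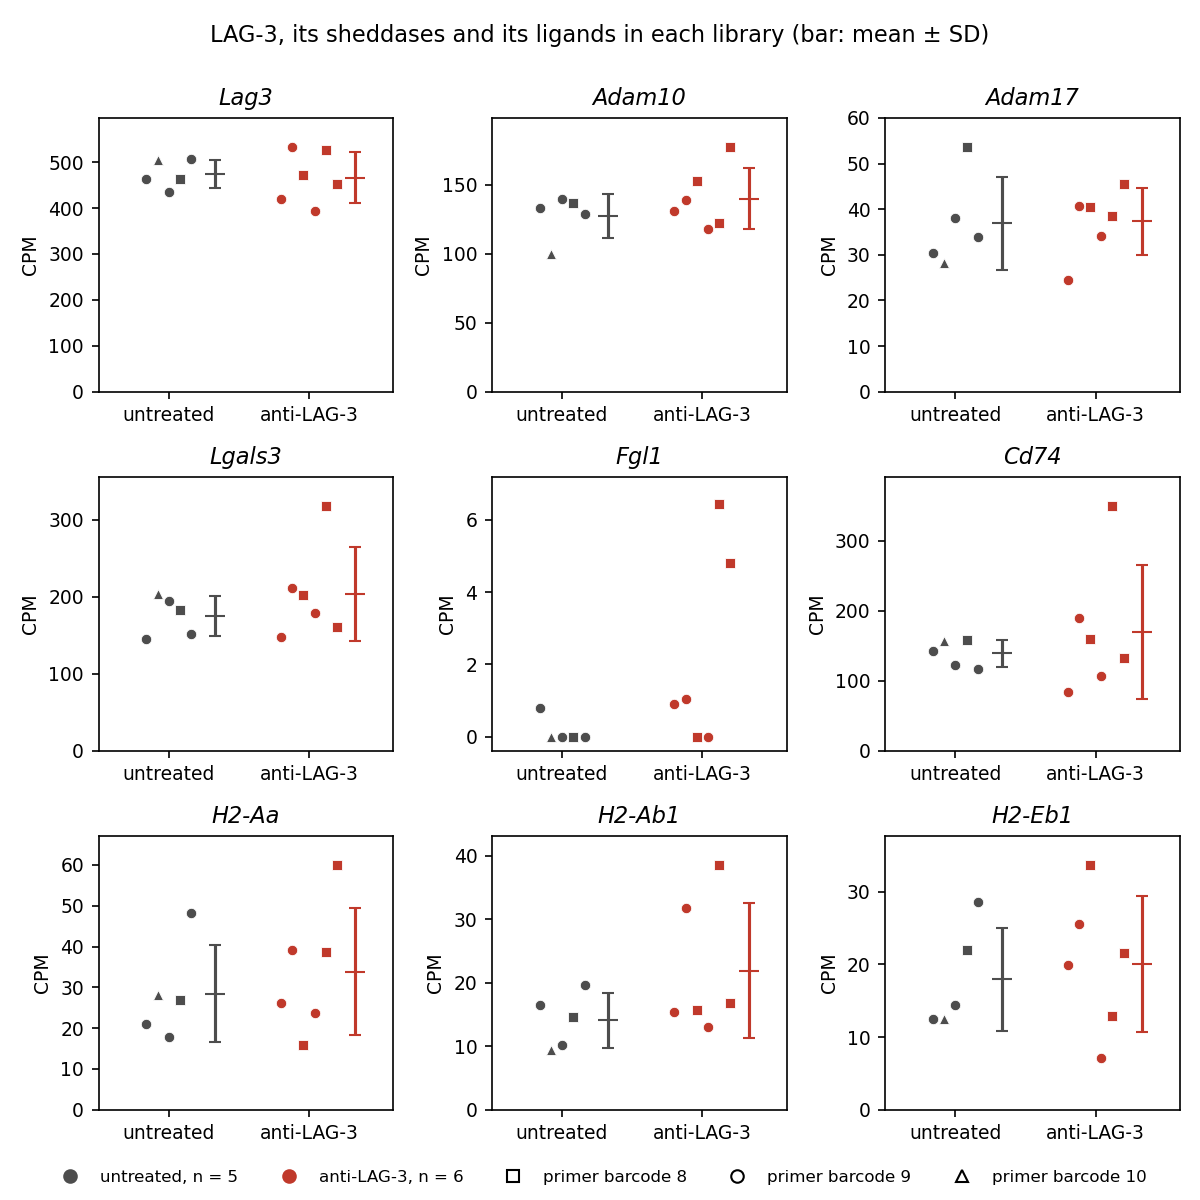
CPM of each of the 9 genes in every library, with untreated mice in grey, anti-LAG-3 mice in red, the primer barcode as the symbol, and bars at the mean ± SD (none for Fgl1, which had at most 2 counts per library). The groups overlap in each panel, and anti-LAG-3 replicate 10 is the highest point for Lgals3, Cd74 and H2-Ab1.

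Lag3 RNA was found in every library, and its mean level in the groups was nearly equal. The gene lies on chromosome 6 of GRCm38 from 124904361 to 124911705 on the minus strand. In untreated mice it had 464, 504, 436, 463 and 506 CPM, and in anti-LAG-3 mice the lowest value was 394, the median 462 and the highest 533 CPM. The anti-LAG-3 libraries spanned a wider range that contained every untreated value. The means were 475 ± 30.0 CPM (n = 5, SD) and 466 ± 56.2 CPM (n = 6, SD). The log2 fold change was -0.02 (standard error, SE, 0.087, adjusted p = 0.999 in the quasi-likelihood test), with a 95% interval from -0.20 to 0.16, or a fold between 0.870 and 1.11. Within the 6 libraries with primer barcode 9 it was -0.05 (SE 0.11). The spread of the Lag3 counts within the groups was 4.57 times that expected from counting alone (chi-square per degree of freedom), on 161 to 1022 counts per library. This measure grows with the number of counts. The biological coefficient of variation, edgeR's fitted spread beyond counting, was 9.66% for Lag3 and 9.69% for Adam10. Cd4, which lies 16139 bases from Lag3 on the same strand, had at most 1 count in any library.

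None of the signaling partners of LAG-3 passed the test either. Of 8 genes of the CD3 chains, the coreceptors and the kinase Lck, which coreceptors bind, 7 were tested and 0 passed, with 0 at an unadjusted p under 0.05, a median log2 fold change of 0.03 and a range from -0.08 to 0.13. Cd3e, a CD3 chain, had 602 ± 17.9 CPM (n = 5, SD) and 659 ± 63.7 CPM (n = 6, SD), with a log2 fold change of 0.13 (SE 0.075). Cd3g, another CD3 chain, had a log2 fold change of 0.09 (SE 0.074), and Cd8a, which had the highest CPM of the list, of 0.02 (SE 0.063). Each had an adjusted p of 0.999 in the same test.

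The gene whose levels most resembled those of Lag3 was Camk4, a calcium-dependent kinase. Over the 11 libraries its log2 CPM had a Pearson r of 0.87 with that of Lag3 (Spearman's rho 0.76), in a search of 1705 genes with a mean of 100 CPM or more. The next were Tmem123 (r = 0.80), the antisense transcript Gm20400 (r = 0.79), Ostf1 (r = 0.78) and Tnfrsf18, which encodes the costimulatory receptor GITR (r = 0.78). These values are a description, since the 5 genes were chosen for them and all points share depth and primer barcode, and over the 1705 genes the median r was -0.0026 with a 95th percentile of 0.56. None of the 5 had an adjusted p under 0.05 between the groups. Reads of Tnfrsf18 are uncertain, because 18.7% of the 50-base stretches of its transcripts also occur in another gene. Among the ligand and sheddase genes of this level, Cd74 had an r of 0.73 with Lag3 (rank 13), Lgals3 of 0.52 (rank 121) and Adam10 of -0.14 (rank 1093).

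Of the sheddases, Adam10 had more RNA than Adam17, per length of transcript and in CPM, and for neither was a difference between the groups larger than the spread between mice. Adam10, on chromosome 9 from 70678997 to 70780229, had 134, 100, 140, 137 and 129 CPM in untreated mice. In anti-LAG-3 mice its lowest value was 118, its median 135 and its highest 178 CPM. Untreated replicate 2, among the shallowest libraries, was the lowest of all, and anti-LAG-3 replicate 11 the highest. The means of 128 ± 16.0 CPM (n = 5, SD) and 140 ± 22.2 CPM (n = 6, SD) gave a log2 fold change of 0.09 (SE 0.12, 95% interval from -0.16 to 0.34, adjusted p = 0.999 in the quasi-likelihood test). Within primer barcode 9 the log2 fold change was -0.05 (SE 0.13), in the other direction.

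Adam17, the protease also known for releasing TNF, lies on chromosome 12 from 21323509 to 21373632. Its values were 30.5, 28.2, 38.1, 53.7 and 34.0 CPM in untreated mice, and the lowest, median and highest values in anti-LAG-3 mice were 24.4, 39.5 and 45.6 CPM. Both the highest library, untreated replicate 4, and the second-lowest belonged to the untreated group. The log2 fold change was 0.0068 (SE 0.20), and its 95% interval from -0.41 to 0.42 leaves room for a fold of 0.753 to 1.34. For both proteases the spread within the groups was close to that of counting alone, with chi-square per degree of freedom of 1.33 for Adam10 and 1.36 for Adam17. Because this measure grows with the number of counts, it does not compare these genes with Lag3. The biological coefficient of variation was 9.69% for Adam10, 13.6% for Adam17 and 9.66% for Lag3. Adam17 overlaps Iah1 on the other strand and shares 4.83% of its 50-base stretches with other genes, and whether strand was used in counting is not stated in the sources used here.

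Genes that direct these proteases were sparse in the libraries. The list held the iRhom genes that carry ADAM17 to the surface, the TspanC8 tetraspanins that do so for ADAM10, the Timp inhibitors and Furin, which activates the proteases by cutting off their prodomain. Of 13 listed genes 12 were in the table and 2 passed the filter on low counts, of which 0 passed the test and 0 had an unadjusted p under 0.05. Tspan14, the highest of the list in CPM, had 38.3 ± 6.68 CPM (n = 5, SD) in untreated and 31.2 ± 8.66 CPM (n = 6, SD) in anti-LAG-3 mice, with a log2 fold change of -0.27 (SE 0.20). Furin had 23.5 ± 8.13 and 23.3 ± 4.56 CPM, a log2 fold change of 0.07 (SE 0.23). Rhbdf2, the iRhom gene of immune cells, had 18 counts in all untreated and 25 in all anti-LAG-3 libraries, and Rhbdf1 had 1 and 0.

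Genes of other proteins that ADAM10 or ADAM17 cut made up a further list. Of 10 listed genes 6 were tested and 0 passed. The median log2 fold change was -0.15, with 4 lower and 2 higher in anti-LAG-3 mice, and 1 had an unadjusted p under 0.05, against 3.73% of all tested genes. This was Tnfrsf1b, TNF receptor 2, at 206 ± 19.6 CPM (n = 5, SD) in untreated and 173 ± 29.0 CPM (n = 6, SD) in anti-LAG-3 mice, which had the highest CPM of the list. Its log2 fold change was -0.25 (SE 0.11, adjusted p = 0.999 in the quasi-likelihood test). Cd44, an adhesion receptor, had 124 to 137 CPM in untreated and 139 to 151 CPM in anti-LAG-3 mice, and was the only tested gene of the 4 lists whose groups did not overlap, against 0.475% of all tested genes. Its log2 fold change was 0.15 (SE 0.10, adjusted p = 0.999 in the same test). With CPM on total counts, a scaling added after the values were seen, the Cd44 groups overlapped, since the highest untreated value was 137.7 CPM and the lowest anti-LAG-3 value 137.3 CPM.

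**Figure D2:**
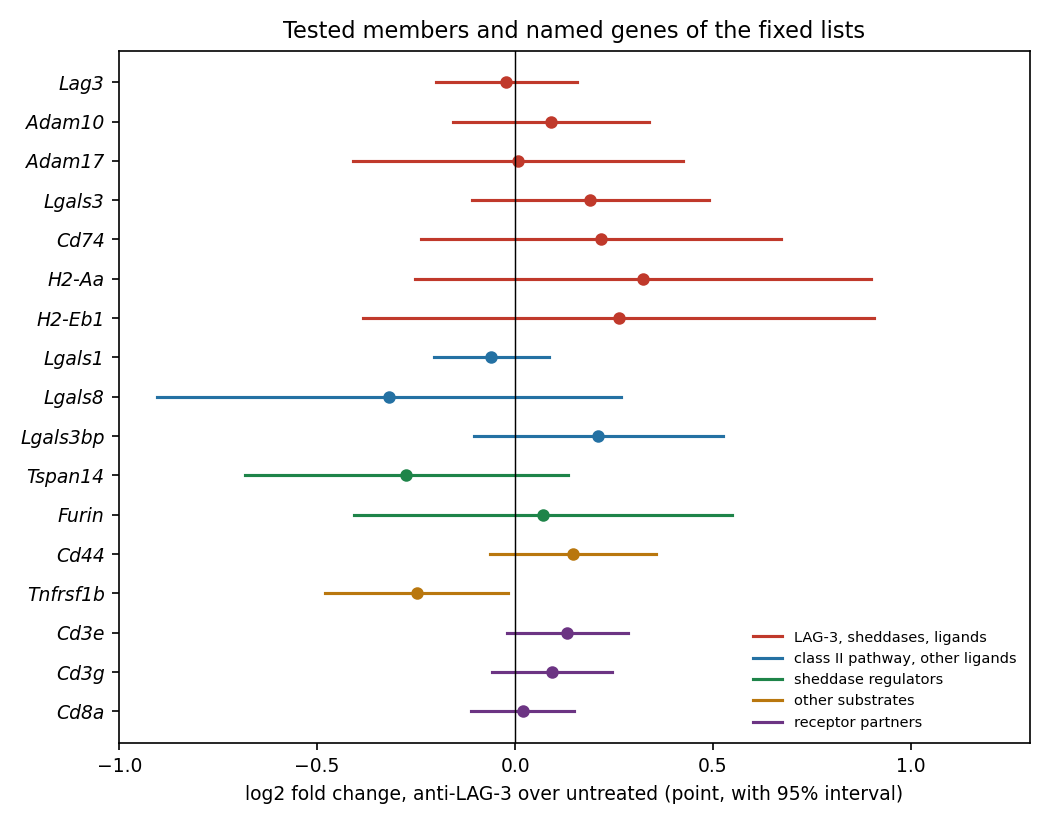
Log2 fold changes of anti-LAG-3 over untreated mice from edgeR's quasi-likelihood fit (points) with 95% intervals (lines) for the 7 tested genes of LAG-3, its sheddases and its ligands and for named genes of the 4 lists. The intervals of all 7 cross 0, that of Lag3 is the narrowest of them, and those of H2-Aa and H2-Eb1 reach 0.90 and 0.91.

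Galectin-3 RNA was read in every library, with 65 to 406 counts. Lgals3, on chromosome 14 from 47367751 to 47386160, had 145, 203, 194, 183 and 152 CPM in untreated mice, and 148, 190 and 318 CPM as the lowest, median and highest value in anti-LAG-3 mice. The highest value belonged to anti-LAG-3 replicate 10, and all other libraries lay between 145 and 212 CPM. The means were 175 ± 26.0 CPM (n = 5, SD) and 203 ± 61.1 CPM (n = 6, SD), and the log2 fold change was 0.19 (SE 0.15, 95% interval from -0.11 to 0.49, adjusted p = 0.999 in the quasi-likelihood test). It was 0.07 (SE 0.12) without anti-LAG-3 replicate 10 and 0.14 (SE 0.15) within primer barcode 9. The spread within the groups was 6.19 times that of counting, on the measure that grows with the number of counts. Replicate 10 also had the highest myeloid marker sum, 148 CPM, and the part of such cells in its Lgals3 value was not tested.

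Other secreted or lectin ligands and class II pathway genes formed a list of 17, of which 8 were tested and 0 passed, with 0 at an unadjusted p under 0.05. Among these 8 the log2 fold change was above 0 for 4 and below 0 for 4, with a median of 0.01. Lgals1, galectin-1, had the highest CPM of the list, 1180 ± 45.2 CPM (n = 5, SD) in untreated and 1132 ± 121 CPM (n = 6, SD) in anti-LAG-3 mice, with a log2 fold change of -0.06 (SE 0.071). Lgals3bp, a secreted glycoprotein that galectin-3 binds, had 65.7 ± 12.9 and 75.1 ± 13.9 CPM, a log2 fold change of 0.21 (SE 0.15). Lgals8, galectin-8, had 20.7 ± 5.95 and 15.4 ± 6.33 CPM, a log2 fold change of -0.32 (SE 0.29), and overlaps Heatr1 on the other strand. Clec4g, which encodes the ligand LSECtin of liver endothelium, had no read in any library.

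Fgl1 was at the limit of detection. The gene lies on chromosome 8 from 41191434 to 41215156. Of the 50-base stretches of its transcripts 0.357% also occur in other genes, 511 in number. Whether the few counts came from such stretches was not tested. Untreated replicate 1 had 1 count and the other untreated libraries 0, while anti-LAG-3 replicates 6, 7, 10 and 11 had 1, 2, 2 and 2 counts and replicates 8 and 9 had 0. A count was thus seen in 1 of 5 untreated and 4 of 6 anti-LAG-3 libraries, with 1 and 7 counts in all, and in the 6 libraries at 0 this allows a level of up to 2.54 to 9.39 CPM. No library exceeded the floor of 3 counts, so no fold is given. On log2(CPM + 1) the exact two-sided permutation test over all 462 divisions of the libraries gave p = 0.0866 (0.141 adjusted over the 2 genes tested in this way). Within primer barcode 9, p was 0.40 by the exact permutation test, where 3 libraries against 3 cannot go below 0.10.

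MHC class II RNA was present at a low level in every library and varied several-fold between mice of the same group. H2-Aa, the alpha chain, on chromosome 17 from 34282744 to 34287823, had 21.1, 28.2, 17.8, 26.8 and 48.3 CPM in untreated mice. In anti-LAG-3 mice the lowest, median and highest H2-Aa values were 15.7, 32.4 and 60.0 CPM. The lowest and the highest library were both in the anti-LAG-3 group. Its log2 fold change was 0.32 (SE 0.28, 95% interval from -0.25 to 0.90, adjusted p = 0.999 in the quasi-likelihood test), and it ranged from 0.14 without untreated replicate 3 to 0.60 without untreated replicate 5, the highest untreated library. Within primer barcode 9 it was 0.25 (SE 0.32).

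H2-Eb1, the I-E beta chain, on chromosome 17 from 34305867 to 34316674, had 12.5, 12.5, 14.4, 21.9 and 28.6 CPM in untreated mice. In anti-LAG-3 mice it had 7.08, 20.7 and 33.7 CPM as the lowest, median and highest value. Here too the extremes lay in the anti-LAG-3 group, in replicates 9 and 8. The log2 fold change was 0.26 (SE 0.31, 95% interval from -0.38 to 0.91, adjusted p = 0.999 in the quasi-likelihood test) and within primer barcode 9 it was 0.18 (SE 0.38). It ranged from 0.094 without anti-LAG-3 replicate 7 to 0.47 without untreated replicate 5. H2-Eb1 overlaps Gm20513 on the other strand.

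H2-Ab1, the partner chain of H2-Aa, on chromosome 17 from 34257689 to 34269419, did not pass the filter on low counts, with 3 to 61 counts per library. It had 16.4, 9.39, 10.2, 14.6 and 19.7 CPM in untreated mice, and 13.0, 16.3 and 38.5 CPM as the lowest, median and highest value in anti-LAG-3 mice. Replicates 7 and 10 of the anti-LAG-3 group, at 31.8 and 38.5 CPM, stood above the other 9 libraries, which lay between 9.39 and 19.7 CPM. On log2(CPM + 1) the means were 3.86 ± 0.42 (n = 5, SD) and 4.40 ± 0.61 (n = 6, SD), a difference of 0.54 (p = 0.141 by the exact permutation test, two-sided, and the same after adjustment over the 2 genes tested in this way). The difference was 0.36 without anti-LAG-3 replicate 10 (p = 0.238, exact permutation test) and 0.30 within primer barcode 9 (p = 0.70, exact permutation test). When edgeR was run with no filter, H2-Ab1 had a log2 fold change of 0.64 (SE 0.29) and an adjusted p of 0.722. It passed the filter within primer barcode 9 and without anti-LAG-3 replicate 10, where edgeR gave larger values than the log2(CPM + 1) scale, 0.56 (SE 0.36, adjusted p = 0.986) and 0.52 (SE 0.30, adjusted p = 1.00).

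Cd74, the invariant chain, was found in every library, with 50 to 363 counts. It lies on chromosome 18 from 60803848 to 60812652. The untreated values were 143, 157, 123, 159 and 116 CPM, and the lowest, median and highest anti-LAG-3 values were 84.1, 146 and 350 CPM. Anti-LAG-3 replicate 10 at 350 CPM was far above the second-highest library at 189 CPM, and the lowest library was also from an anti-LAG-3 mouse. The means were 139 ± 19.3 CPM (n = 5, SD) and 170 ± 95.7 CPM (n = 6, SD), and the spread of the counts within the groups was 16.4 times that of counting, a measure that grows with the number of counts. The log2 fold change was 0.22 (SE 0.22, 95% interval from -0.24 to 0.67, adjusted p = 0.999 in the quasi-likelihood test). Without anti-LAG-3 replicate 10 its direction turned, to -0.02 (SE 0.16), and within primer barcode 9 it was 0.02 (SE 0.21).

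Of the genes that switch on class II or load it with peptide, some were at the edge of detection and others were not. Ciita, the class II coactivator, had 3 counts in all untreated and 5 in all anti-LAG-3 libraries, at most 3.21 CPM. Rfx5, Rfxap and Rfxank, which bind the X box, had 36 to 57 counts each in all untreated and 55 to 67 in all anti-LAG-3 libraries, and did not pass the filter. H2-DMb1, H2-DMb2 and H2-Ob, subunits of the peptide-loading proteins, had 8, 7 and 6 counts in all untreated and 8, 17 and 5 in all anti-LAG-3 libraries. Their partner chains H2-DMa and H2-Oa passed the filter, and had log2 fold changes of -0.12 (SE 0.30) and 0.24 (SE 0.31) with adjusted p = 0.999 in the quasi-likelihood test. Ctss, the protease that trims the invariant chain, had 184 ± 27.6 CPM (n = 5, SD) and 179 ± 27.1 CPM (n = 6, SD), with a log2 fold change of -0.03 (SE 0.12). The source of the class II and Cd74 RNA among the sorted cells was not tested.

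Each class II gene, Cd74 and Lgals3 was set against the summed CPM of the myeloid and of the B cell markers over the 11 libraries, which makes 10 relations. H2-Ab1 followed the myeloid sum closely. On log2(CPM + 1) Pearson's r was 0.94 (permutation p = 1e-05, adjusted 0.0001 over the 10 relations, the smallest that 100000 resamples can give) and Spearman's rho was 0.96 (permutation p = 2e-05, adjusted 0.0002). Without untreated replicate 2 and anti-LAG-3 replicate 10, which lay farthest from the median myeloid sum and were the shallowest library of each group, r was 0.85 (permutation p = 0.00296, adjusted 0.0268). Within the 6 libraries with primer barcode 9, r was 0.88 (exact permutation p = 0.0181, adjusted 0.0926). The myeloid sum rested on 6 to 144 counts per library. No relation was computed with the dendritic cell sum, although dendritic cell markers were present in the libraries.

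The same sum was set against the other 4 genes. For Cd74 r was 0.62 (permutation p = 0.0465, adjusted 0.232) and rho 0.50 (permutation p = 0.122), and r fell to 0.17 without anti-LAG-3 replicate 10. H2-Aa had an r of 0.41 (permutation p = 0.21, adjusted 0.316) and rho of 0.41 (permutation p = 0.213), and r was 0.73 within primer barcode 9 (exact permutation p = 0.108, adjusted 0.271). For H2-Eb1 r was 0.38 (permutation p = 0.253, adjusted 0.316) and rho 0.54 (permutation p = 0.0951). Without the 2 farthest libraries r was 0.78 (permutation p = 0.0149, adjusted 0.0497) and rho 0.77 (permutation p = 0.0214, adjusted 0.107). Without anti-LAG-3 replicate 10 alone r was 0.76 (permutation p = 0.0115, adjusted 0.0577). Within primer barcode 9 the r of H2-Eb1 was 0.86 (exact permutation p = 0.0278, adjusted 0.0926), near that of H2-Ab1. In anti-LAG-3 replicate 10, the library with the most myeloid RNA, H2-Eb1 had 4 counts, or 12.8 CPM. Lgals3 had an r of 0.44 (permutation p = 0.178, adjusted 0.316) and rho of 0.22 (permutation p = 0.519), and r was -0.04 without the 2 farthest libraries and -0.25 without anti-LAG-3 replicate 10 alone, so this relation rested on that library. Differences between these correlations were not tested.

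**Figure D3:**
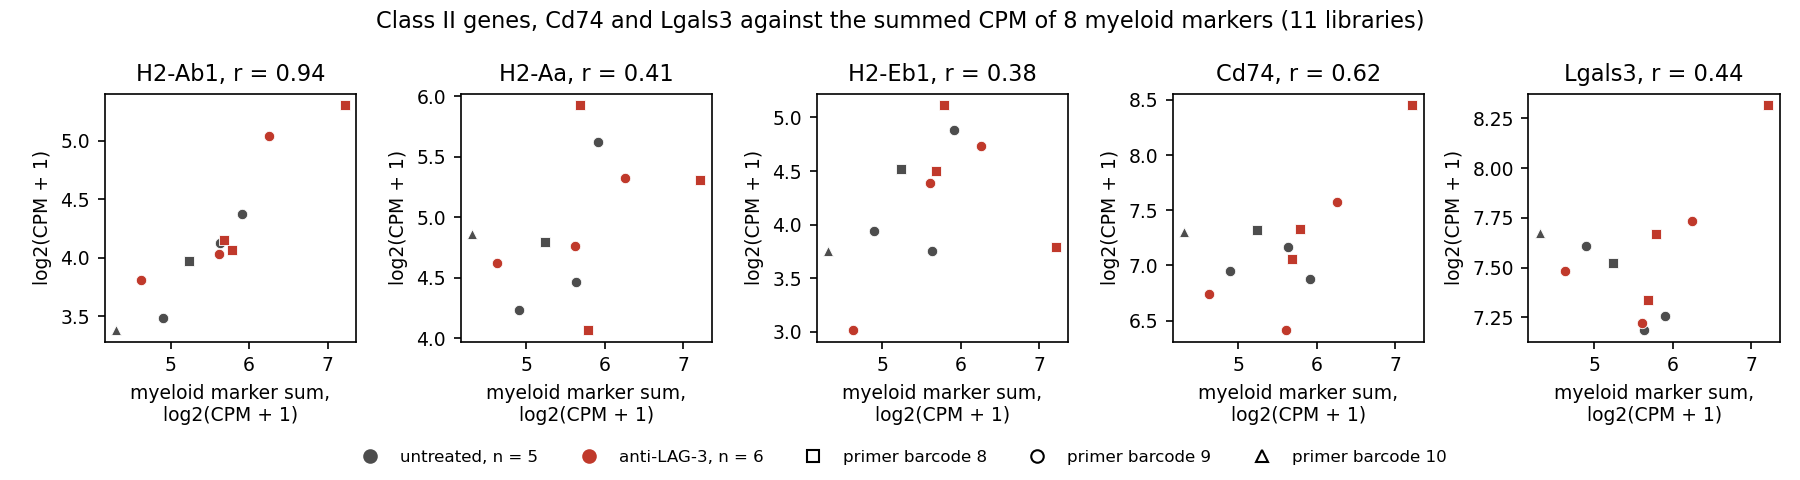
Log2(CPM + 1) of H2-Ab1, H2-Aa, H2-Eb1, Cd74 and Lgals3 (y axes) against the summed CPM of 8 myeloid markers on the same scale (x axes) in 11 libraries, with untreated mice in grey, anti-LAG-3 mice in red and the primer barcode as the symbol. H2-Ab1 lies near a line (r = 0.94), while for Cd74 (r = 0.62) and Lgals3 (r = 0.44) the single point at the upper right is anti-LAG-3 replicate 10.

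Against the B cell sum, which never exceeded 10 counts, Pearson's r was -0.27 for H2-Aa, 0.50 for H2-Ab1, -0.10 for H2-Eb1, 0.39 for Cd74 and 0.48 for Lgals3, and each adjusted permutation p was 0.316 or more. Spearman's rho was -0.16, 0.23, -0.10, 0.35 and 0.44 in the same order. For Lgals3, r was 0.84 (permutation p = 0.00537, adjusted 0.0268) without untreated replicate 2 and anti-LAG-3 replicate 11, and rho was 0.67 (permutation p = 0.0599). These libraries were the farthest from the median B cell sum on log2(CPM + 1). Anti-LAG-3 replicate 10, the highest at 9.64 CPM, was kept, but it was among the 2 farthest on log2(CPM + 5). Without anti-LAG-3 replicate 10 alone, r for Lgals3 was 0.16 (permutation p = 0.643, adjusted 0.804), while it was 0.92 (exact permutation p = 0.0194, adjusted 0.0926) within primer barcode 9, which does not hold that library, and 0.62 (permutation p = 0.0438, adjusted 0.146) on log2(CPM + 5). For Cd74, r was 0.72 (permutation p = 0.0293, adjusted 0.0733) without the 2 farthest libraries and -0.0084 without anti-LAG-3 replicate 10. The B cell relations thus moved widely with the libraries kept, on few B cell counts.

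The levels of the 9 genes were ordered per kb of transcript (the longest principal transcript of each gene). Lag3 was the highest, with a mean of 235 CPM per kb and a range of 197 to 266, followed by Lgals3 with 134 and Cd74 with 111 CPM per kb. Lag3 exceeded Lgals3 in all 11 libraries, and Lgals3 exceeded Cd74 in 10 of 11, although their ranges over libraries (102 to 224 and 59.6 to 248) overlapped. Adam10 followed with 29.3 and H2-Aa with 27.8 CPM per kb, and Adam10 was the higher of this pair in 6 of 11 libraries, so that these neighbours did not differ beyond their spread on this scale. H2-Ab1 had 15.1, H2-Eb1 11.5 and Adam17 8.35 CPM per kb. H2-Ab1 exceeded H2-Eb1 in 7 of 11 libraries and H2-Eb1 exceeded Adam17 in 9 of 11, with overlapping ranges. Fgl1 was the lowest at 1.13 CPM per kb. By the methods the primer barcode is joined to 1 end of the cDNA before the cDNA is fragmented. Libraries that share the second number can be told apart by this barcode alone, so their reads would come from that end. For such reads the scaling by length does not apply, and how reads lay along the transcripts was not examined. Without this scaling the order below Adam10 changed, since the mean over all libraries was 134 CPM for Adam10, 37.1 for Adam17, 31.4 for H2-Aa, 19.2 for H2-Eb1 and 18.3 for H2-Ab1. Adam17 then stood above the class II genes and H2-Eb1 above H2-Ab1, so that the order of these genes depends on the scaling.

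**Figure D4:**
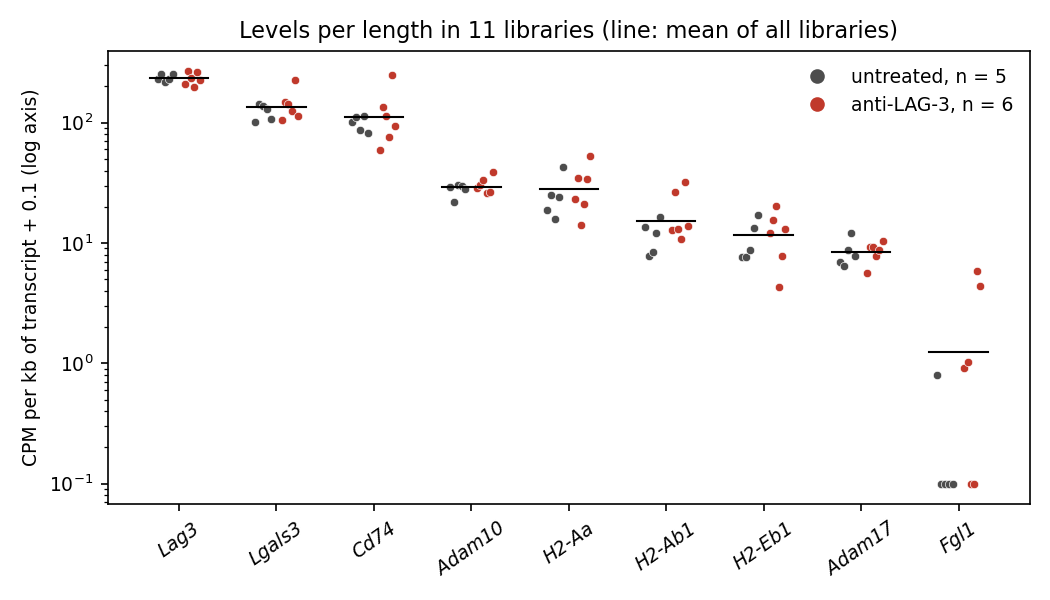
CPM per kb of transcript plus 0.1 on a log axis for the 9 genes, ordered by the mean over all 11 libraries (line), with a point per library in grey for untreated and red for anti-LAG-3 mice. Lag3 is the highest at 235 CPM per kb, Adam10 and H2-Aa are side by side at 29.3 and 27.8, and Fgl1 is the lowest with most libraries near 0.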

How the data were processed

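Bulk RNA-seq libraries of 11 mice, 5 untreated and 6 anti-LAG-3, were grouped by the treatment label, and the titles of the samples identified each of the 11 columns of the table. The replicate numbers, from 1 to 11, are not shared between the groups, while a second number in the titles is. The authors trimmed reads with cutadapt (4.1 per the submitters' processing notes), mapped them with Bowtie2 (2.4.5) to reference RNA of GRCm38 and deposited raw counts per gene symbol. The tool versions in the study's methods differ from those in the notes. Handling of reads that map to several genes, and strand, are not given in the sources used here. That the libraries are separate animals follows from the study's description.

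The 9 genes and the gene lists were chosen with earlier results of these data known. The filterByExpr rule (17.7 CPM, equal to 10 counts in a library of median depth, reached in 5 libraries, and a sum of 15 counts) kept 6949 of 32469 symbols, which were compared with edgeR 4.0.16 (R 4.3.3, TMM, quasi-likelihood test, Benjamini-Hochberg adjustment over all tested genes, threshold 0.05). The standard error of a log2 fold change is its size over the root of F. CPM values are counts divided by total counts times the TMM factor. Genes below the filter were compared by an exact permutation test on log2(CPM + 1), and relations by 100000 permutations. Likeness to Lag3 used log2 CPM with a prior count of 2. The analyses were tested on simulated data. Named genes were the 9 genes, the 2 genes with the smallest p and the highest-expressed gene of each list where no gene passed the threshold, the 5 genes most like Lag3 and sorting markers, and any other gene named was chosen after its values were seen. Results for some listed genes are not reported here. Alternatives covered the test (likelihood ratio test, DESeq2 1.42.0), size factors, filter, primer barcode, pseudocount and leaving out each library. Coordinates and overlaps come from GENCODE M21 on GRCm38, and shared sequence is the percentage of 50-base stretches in the transcripts of a gene that other genes also hold.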

Additional observations from a re-analysis of the deposited data

Results flagged for a closer look

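In 70 groups of values (35 measures in 5 untreated and in 6 anti-LAG-3 libraries, on a log2 scale), the highest or lowest library was tested for standing apart, by its gap to the nearest library as a share of the group's range. The limit is 0.71 for 5 and 0.625 for 6 libraries, and chance alone passes it in about 1 in 20 groups. Of the 70 groups 6 passed.

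Adam10 stood apart as the lowest in untreated replicate 2 (0.75), at 100 CPM on 32 counts against 129 to 140 CPM in the other untreated libraries. Its chi-square per degree of freedom, a measure that grows with the number of counts, was 1.33. For Fgl1 the share was 1 in the untreated group, because replicate 1 with 1 count was the only library above 0. Cd3e stood apart as the highest in untreated replicate 1 (0.718), Ostf1 as the lowest in untreated replicate 3 (0.744) and Pdcd1 as the lowest in untreated replicate 4 (0.742). Havcr2 stood apart as the lowest in anti-LAG-3 replicate 11 (0.641), where it had no count. Anti-LAG-3 replicate 10, although the highest for Lgals3, Cd74, H2-Ab1 and the myeloid sum, did not pass the limit in any of them.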

How the results depend on the processing

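In every alternative that was run, 0 of the 7 tested genes had an adjusted p under 0.05, with 0.722 as the lowest value (edgeR with no filter on low counts), and the 4 lists gave 0 calls. The number of genes called overall rose from 0 to 3 of 24024 with no filter and ranged from 0 to 2 when 1 library was left out, with 2 without anti-LAG-3 replicate 7. Of 119 alternative log2 fold changes, 14 had the other sign, all near 0. Leaving out 1 library gave -0.082 to 0.022 for Lag3, -0.083 to 0.13 for Adam17 and -0.019 to 0.38 for Cd74, and kept the sign for Adam10 (0.021 to 0.14), Lgals3 (0.068 to 0.27), H2-Aa (0.14 to 0.60) and H2-Eb1 (0.094 to 0.47). The Adam17 value was -0.099 with the primer barcode as a covariate and -0.016 within primer barcode 9, where that of Adam10 was -0.049. Without 1 library the exact permutation p of Fgl1 ranged from 0.0476 to 0.167, with 0.0476 without anti-LAG-3 replicate 8 or replicate 9, the libraries of that group with no count. The H2-Ab1 difference on log2(CPM + 1) ranged from 0.36 to 0.66 without 1 library, with the exact permutation p at 0.103 or more. The cause of these changes was not tested.

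Among the relations, that of H2-Ab1 with the myeloid sum had an r of 0.88 and an adjusted permutation p of 0.0926 within primer barcode 9, where n is 6. Without the 2 farthest libraries r was 0.78 for H2-Eb1 and -0.036 for Lgals3 with the myeloid sum, and 0.21 for H2-Aa and 0.84 for Lgals3 with the B cell sum, and Lgals3 was at -0.078 with the myeloid sum within primer barcode 9. Without anti-LAG-3 replicate 10, an alternative added after the data were seen, r was -0.25 for Lgals3 with the myeloid sum, and 0.016 for H2-Eb1, -0.0084 for Cd74 and 0.16 for Lgals3 with the B cell sum.

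No paired analysis was possible because the groups share no replicate number. A fit with the second number of the titles as a block, in which 1 anti-LAG-3 library shares a number with untreated libraries, was not run. Counts were few for Fgl1, H2-Ab1 and H2-Eb1, with 0 to 2, 3 to 61 and 4 to 49 per library, and for H2-Aa, with 7 to 75. The intervals of H2-Aa and H2-Eb1 leave room for changes of nearly 1 on the log2 scale. The spread also exceeded counting error for H2-Aa, H2-Ab1 and H2-Eb1 (chi-square per degree of freedom 3.82, 2.42 and 2.39), as it did for Cd74. Whether depth, mice or libraries set the spread or the width of the intervals was not tested.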
